A study of Homo sapiens with 5 samples.

Results

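The RNA interference machinery was described through 7 genes: DICER1, TARBP2, EIF2C1, EIF2C3, EIF2C4, TNRC6A and TNRC6C. They were taken by symbol from the scaled counts table, where each gene was represented by the transcript row with the highest mean over the libraries, and all 7 of 7 were found among 10593 genes. EIF2C1, EIF2C3 and EIF2C4 are now named AGO1, AGO3 and AGO4 and are called so here. All libraries came from MDA-MB-231, an established triple-negative breast cancer line. Every group held 1 library of these cells and carried 1 agent. Cells labelled siNT received a control siRNA and cells labelled siSET an siRNA against SET, both for 48 hours. Cells labelled siCIP2A received an siRNA against CIP2A, for which the general protocol gives 48 hours while the sample's own label gives no time. The PBS library was the vehicle control at 12 hours, and the OP449 library came from cells given 1 µM of OP449, a SET antagonist, for 12 hours. The 3 siRNA-transfected libraries therefore differed from the 2 others in time as well as in transfection, and these cannot be told apart.

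An siRNA placed in a cell acts through Argonaute proteins, as the cell's own microRNAs do. The nuclease Dicer, encoded by DICER1, cuts double-stranded precursors into short duplexes and, with its partner protein TRBP from TARBP2, helps to load them. Argonaute proteins hold 1 strand of the duplex and use it to find target mRNAs, and the GW182 proteins, encoded by the TNRC6 genes, link Argonaute to the enzymes that remove the poly(A) tail and the cap of the target. AGO2, the Argonaute that slices targets, and DROSHA, DGCR8, XPO5, PRKRA and TNRC6B were not analysed here. Neither were the transcripts of SET and CIP2A, so no check of the knockdowns by target level was made.

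Recovered reads over the gene table ranged from 3640690 in siSET to 5601289 in siCIP2A. The limit set by an unseen transcript, 3 reads, equals 3.31 to 5.13 scaled counts depending on the library. Every one of the 7 genes stood above it, with 59 reads for AGO3 in siSET as the lowest count. Mesenchymal genes of the line were abundant, with VIM between 15670 and 20866 scaled counts and CD44 between 13820 and 20560. Of the luminal and epithelial markers, PGR had no read in any library and FOXA1 at most 1.29 scaled counts. The keratin genes KRT8, KRT18 and KRT19 and ERBB2 were present, ERBB2 at 1049 to 1179. EPCAM at 139 to 282, GATA3 at 133 to 250 and CDH1 at 12.9 to 56.7 scaled counts were read too. Of the fibroblast markers, DCN had no read, LUM at most 8.55 scaled counts and COL1A1 73.7 to 162. The 6 blood and endothelial markers stayed at or below 9.02 scaled counts in each library. As in any bulk sample, fewer cells with a transcript and less of it per cell cannot be told apart. The files do not say whether libraries came from separate cultures, so intervals below cover counting error only.

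The 120 bases before 1 RefSeq start site are shown for each of 5 genes, because AGO4, AGO1 and AGO3 lie side by side, and because DICER1 and TNRC6C were, with AGO3, the genes lower in siSET than in siNT beyond counting error. The sequences come from RefSeq on GRCh38.p14, whereas the coordinates of the table are on hg19. Capitals mark 3 motifs searched on both strands: CACGTG, the E-box bound by MYC, which the title of the series names, CCAAT, the CCAAT box, and GGGCGG, the GC box. No 2 of these overlap in the stretches shown.
AGO4, chr1:35807896-35808015, plus strand: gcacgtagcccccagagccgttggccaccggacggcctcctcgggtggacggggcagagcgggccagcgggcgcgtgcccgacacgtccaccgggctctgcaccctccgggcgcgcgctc
AGO1, chr1:35883089-35883208, plus strand: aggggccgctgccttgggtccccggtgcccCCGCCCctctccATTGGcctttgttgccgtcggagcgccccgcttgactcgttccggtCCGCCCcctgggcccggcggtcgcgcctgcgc
AGO3, chr1:35930985-35931104, plus strand: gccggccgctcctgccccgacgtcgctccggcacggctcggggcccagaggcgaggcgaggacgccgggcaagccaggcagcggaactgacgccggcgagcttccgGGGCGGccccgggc
DICER1, chr14:95157530-95157649, minus strand: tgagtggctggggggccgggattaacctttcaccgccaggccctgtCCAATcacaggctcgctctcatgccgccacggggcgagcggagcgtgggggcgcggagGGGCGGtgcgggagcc
TNRC6C, chr17:77958583-77958702, plus strand: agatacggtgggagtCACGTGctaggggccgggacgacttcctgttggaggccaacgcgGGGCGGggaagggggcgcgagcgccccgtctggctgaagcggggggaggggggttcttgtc

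RefSeq lists 16 start windows of 300 bases for the 7 genes, from 250 bases before to 50 after each start, and every gene had at least 1. The E-box letters CACGTG were found in 1 of these windows, the TNRC6C window that holds the stretch above, against 7.26% of the 35116 windows of all genes. It belongs to the second of 4 TNRC6C starts and is shown because it holds these letters. The TNRC6C windows of the first and the third start held none of the 3 motifs. The starts were not matched to the transcript row counted, whose coordinates are on the other build, so the stretch shown may not be the start of that row. The same holds for DICER1, which has several RefSeq starts. Of its windows, only the one of the stretch shown held both CCAAT and GGGCGG. The window with the stretch chr14:95133504-95133623 held none of the 3 motifs. The CCAAT letters were in 7 of the 16 windows and in 34.6% of all windows, and GGGCGG was in 10 of 16 and in 44.95% of all. Of the DICER1 windows, 2 overlap and share 1 GGGCGG match, which counts in both. The AGO4 window held none of the 3 motifs, whereas that of AGO1, its neighbour, held 1 CCAAT and 2 GGGCGG matches. A match of letters is a description of the window and not a binding site.

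DICER1, the nuclease that makes the short duplexes, had the largest coefficient of variation of the 7 over the 5 libraries. Its levels with siNT, siSET and siCIP2A were 1894, 1192 and 1424 scaled counts, and those of PBS and OP449 were 1197 and 1518, from 697 to 1598 reads. The control siRNA library was the highest of the 5, and the SET siRNA library stood at the level of PBS, so the transfected and other libraries overlapped. In order, siNT exceeded OP449 beyond counting error and siCIP2A exceeded PBS, while OP449 and siCIP2A, and PBS and siSET, did not differ beyond it. These were the only 2 of 28 neighbouring steps, over the ordered levels of all 7 genes, that exceeded counting error. The transcript used spans chromosome 14 from 95552565 to 95623759 on hg19. The other DICER1 row had 1 to 7 reads fewer, so the rows cannot be read as separate isoforms.

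TARBP2 encodes the loading partner of Dicer. Its levels with siNT, siSET and siCIP2A were 244, 258 and 195 scaled counts, and those of PBS and OP449 were 236 and 281. The lowest library was the CIP2A siRNA and the highest OP449, and no neighbouring pair in this order differed beyond counting error. The transcript used spans chromosome 12 from 53894705 to 53900213 on hg19. It encodes isoform a, and its reads exceeded those of the isoform b row with the later start by 16 to 24 in the other libraries and by 8 in OP449. Per kilobase of transcript, the mean level of TARBP2 was 130 scaled counts and that of DICER1 141. The pair stood close on this scale although DICER1 had the higher scaled count. The RNA was reverse transcribed with oligo-dT, and the spread of reads along transcripts was not examined. Levels per kilobase of long and short transcripts, here and below, may therefore not compare.

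**Figure D1:**
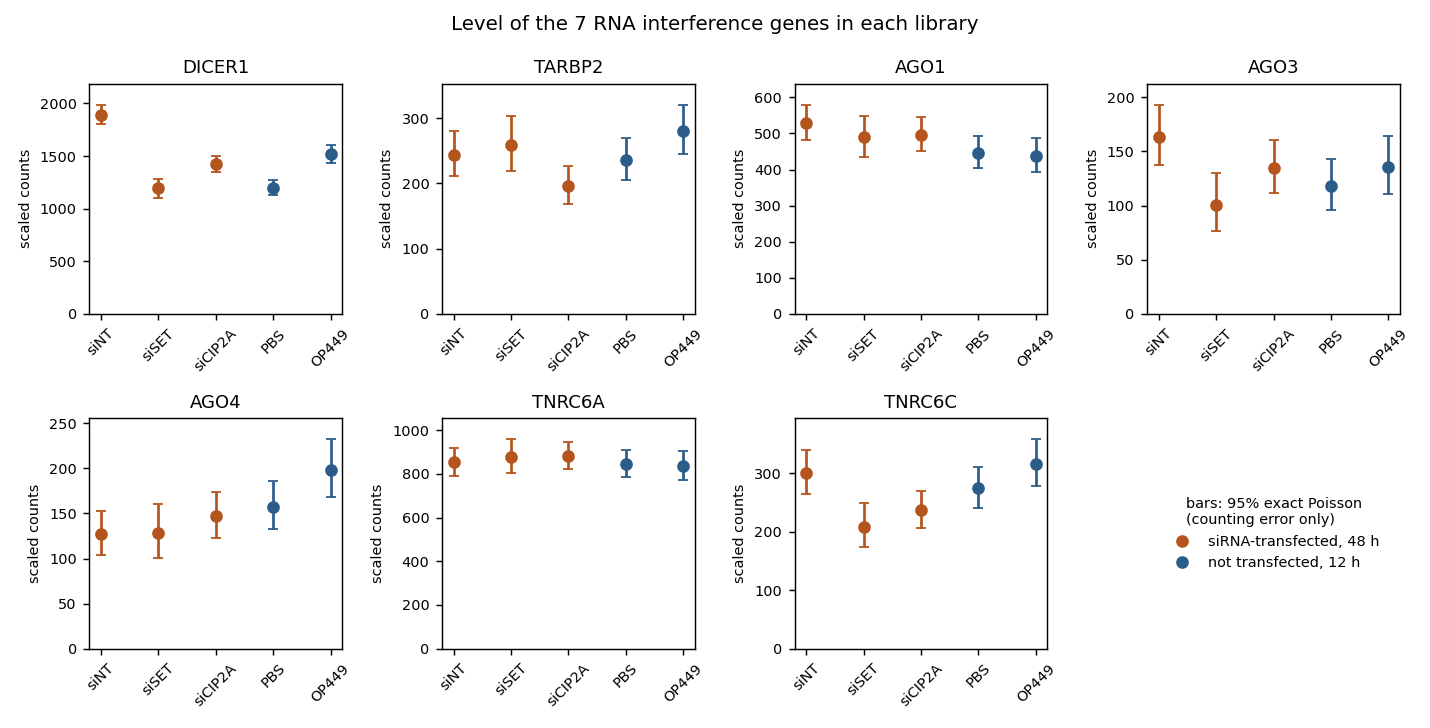
Scaled counts (vertical axes, each starting at 0) of the 7 genes in each of the 5 libraries (horizontal axes), with 95% exact Poisson intervals that cover counting error only; orange points are siRNA-transfected and blue points are not. DICER1 is highest in siNT at 1894, AGO4 is lowest in the 3 transfected libraries, and TNRC6A lies between 836 and 883 throughout.

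The 3 Argonaute genes lie in 1 cluster of 248 kb on chromosome 1, all on the plus strand. AGO1 stood at 529 scaled counts in siNT, 489 in siSET and 497 in siCIP2A, against 447 in PBS and 438 in OP449. All 3 transfected libraries were above both others, by a gap of 42.6 scaled counts. AGO4 had its 3 transfected libraries below both others, at 127 in siNT, 128 in siSET and 147 in siCIP2A, against 158 in PBS and 198 in OP449, a gap of 10.7. Every step between neighbours in the order of both genes lay within counting error, including the step across the gap. For AGO1 the difference between the mean log2 levels of the transfected and other libraries was 0.19 ± 0.12 (SE), and for AGO4 it was -0.40 ± 0.18.

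AGO3 had the lowest mean level of the 7, with 164, 101 and 135 scaled counts for siNT, siSET and siCIP2A and with 118 and 135 for PBS and OP449. As for DICER1, siNT was the highest library and siSET the lowest, and the groups overlapped. A second AGO3 row, which encodes isoform b, had 6 to 16 reads fewer than the row of isoform a used here. On hg19 AGO4 spans chromosome 1 from 36273828 to 36321188, AGO1 from 36348810 to 36389897 and AGO3 from 36396772 to 36522062. Nothing used here states how reads shared between Argonaute paralogs were treated, so their split is uncertain.

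Among the GW182 genes, TNRC6A was the steadiest of the 7. Its levels with siNT, siSET and siCIP2A were 853, 879 and 883 scaled counts, and PBS and OP449 had 847 and 836. The 3 transfected libraries were above the 2 others, but by a gap of only 6.52 scaled counts, and with equal upper quartiles or with the trend in length and GC content removed they overlapped. TNRC6C moved more, with 299.8, 209 and 236 scaled counts for siNT, siSET and siCIP2A and with 274 and 316 for PBS and OP449. The libraries with siRNAs against SET and CIP2A were its 2 lowest, and the control siRNA lay between PBS and OP449. TNRC6A spans chromosome 16 from 24741049 to 24837545 on hg19, and TNRC6C chromosome 17 from 76000318 to 76104916.

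The ratio of the highest to the lowest library put these spreads on 1 scale. It was 1.62 for AGO3, 1.59 for DICER1, 1.56 for AGO4, 1.51 for TNRC6C, 1.44 for TARBP2, 1.21 for AGO1 and 1.06 for TNRC6A. Over the 6094 genes with a mean of at least 50 scaled counts the median of this ratio was 1.33 and the quartiles 1.21 and 1.51. AGO3 and AGO4 rest on few reads, and their ratios hold more counting error than that of DICER1. Per kilobase, mean levels were 102 scaled counts for TNRC6A, 64.2 for AGO1, 31.9 for AGO4 and 27.4 for TNRC6C. Those of AGO1 and AGO4 rest on a length shortened to the span in the table, and AGO3 had no usable length.

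The first comparison asked whether siRNA transfection went with another level of these genes. No gene of the 7 passed the test between the 3 transfected and the 2 other libraries. In limma, fitted on log2(scaled count + 1) over 6094 genes, 0 genes had a Benjamini-Hochberg adjusted p below 0.05 (0% of those tested), and 479 had an unadjusted p below 0.05. AGO4 had the smallest limma p of the 7, with an adjusted p of 0.65, and AGO1 followed at 0.70. For the other genes the limma differences were 0.13 ± 0.19 (SE) for DICER1, -0.16 ± 0.17 for TARBP2, 0.047 ± 0.23 for AGO3, 0.051 ± 0.10 for TNRC6A and -0.26 ± 0.18 for TNRC6C, with adjusted p from 0.72 to 0.97. edgeR's quasi-likelihood test on the recovered reads also called 0 genes, with 486 at an unadjusted p below 0.05, and DESeq2 called 18 of all genes, 7 higher and 11 lower, none of them among the 7, of which AGO3 and AGO4 got no adjusted p from DESeq2. This was 0.295% of the 6094 genes given to DESeq2, a number that includes genes without an adjusted p. Each arm mixed libraries of different agents, so the spread in this test holds the effects of the agents. An exact permutation test of 3 libraries against 2, with the smaller tail doubled for a two-sided p over the 10 splits, cannot give a p below 0.2.

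Counted by order alone, 3 of the 7 genes separated the transfected from the other libraries, AGO1 and TNRC6A above and AGO4 below. Of all 6094 genes, 25.9% separated them in the same sense, 12.1% above and 13.8% below. With 7 genes, the count was not tested against this background. Without the PBS library, 5 of the 7 separated, with TARBP2 and TNRC6C added below, against 56.4% of all genes. The small positive differences of DICER1 and AGO3 changed sign when siNT was left out, to -0.049 and -0.11, and when PBS was left out, to -0.040 and -0.051. AGO4 stood at -0.24 without OP449 and between -0.36 and -0.57 without any other library. TARBP2 ranged from -0.28 without PBS to -0.035 without siCIP2A and -0.029 without OP449. TNRC6C ranged from -0.40 without siNT to -0.14 without siSET, with -0.16 without OP449.

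The second comparison set the control siRNA against PBS, 2 controls that differ in time. DICER1 was 1.58-fold higher in siNT, with a log2 fold of 0.66 and a 95% exact Clopper-Pearson counting interval of 0.55 to 0.78. AGO3 followed at 0.47 [0.095 to 0.85] and AGO1 at 0.24 [0.044 to 0.44]. These 3 of 7 intervals lay above 0, where 17.7% of 6077 genes did, and 0 lay below, where 17.6% did. AGO4 stood at -0.31 [-0.69 to 0.061], and TARBP2, TNRC6A and TNRC6C were within counting error of 0. No gene of the 7 reached 2-fold, and 0.395% of all genes did. At 1.5-fold, DICER1 was the 1 gene called, against 3.04% of all genes.

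Values by transcript length are given beside this comparison, since DICER1 has a transcript of 10.3 kb. Of 956 genes with transcripts of at least 5 kb, 31.5% had an interval above 0 in siNT against PBS and 12.9% below, with a median log2 fold of 0.066. Of the 1682 genes under 2 kb, 10.2% lay above and 21.6% below. In OP449 against PBS the shares above 0 were 34.0% and 10.1%. With the trend in length and GC content removed, DICER1 stood at 0.56 in siNT against PBS and AGO1 at 0.19. These length classes and the removal of the trend from pairs of libraries were chosen after the data were seen. AGO3 has no length here. The part of transcript length in these values was not tested.

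The third comparison set the library with the siRNA against SET beside the control siRNA. DICER1, AGO3 and TNRC6C were lower in siSET than in siNT beyond counting error. DICER1 stood at -0.67 [-0.80 to -0.54], from 697 and 1598 reads. AGO3 stood at -0.69 [-1.16 to -0.25] from 59 and 138 reads, and TNRC6C at -0.52 [-0.85 to -0.21] from 122 and 253. The other genes held 0 in their intervals, with AGO1 at -0.11, TARBP2 at 0.081, TNRC6A at 0.043 and AGO4 at 0.017. Of 6085 genes, 19.8% had an interval below 0 and 19.8% above. No gene of the 7 reached 2-fold, where 1.18% of all did, and 2 reached 1.5-fold, DICER1 and AGO3, where 7.15% of all did.

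With PBS as the control in place of siNT, the values of DICER1, AGO3 and AGO1 moved. Against PBS, DICER1 in siSET stood at -0.0057 [-0.15 to 0.13], AGO3 at -0.22 [-0.71 to 0.25] and AGO1 at 0.13 [-0.093 to 0.35]. TNRC6C was also below PBS in siSET, at -0.39 [-0.72 to -0.075], and was the 1 gene of the 7 with an interval below 0 there, against 19.3% of all genes, while 19.2% lay above. With the length and GC trend removed, siSET against siNT gave -0.65 for DICER1 and -0.49 for TNRC6C.

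**Figure D2:**
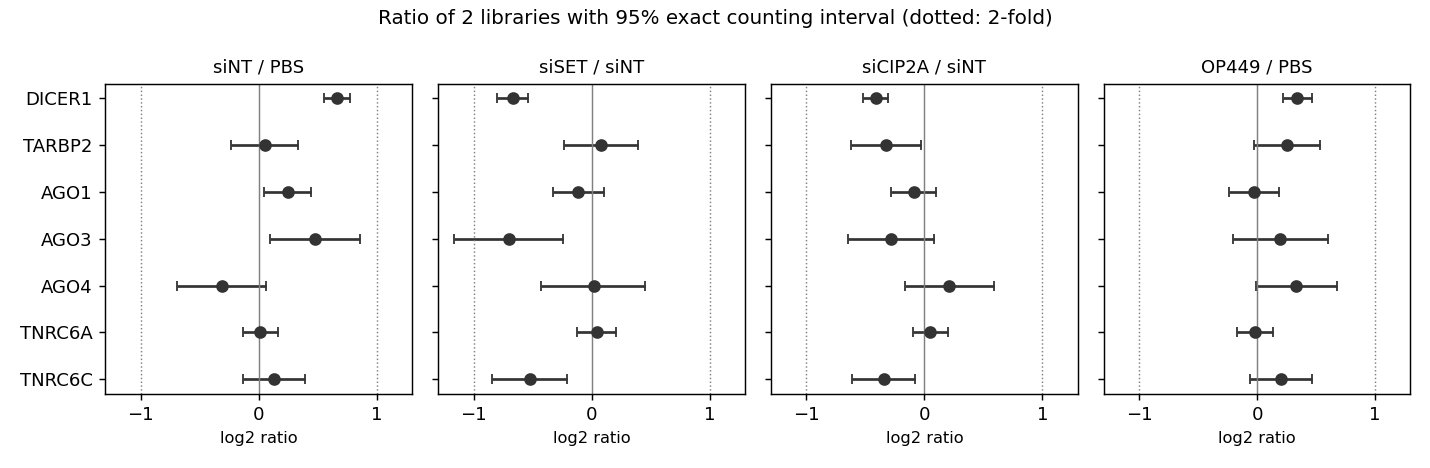
Log2 ratio of 2 libraries (horizontal axes) for each of the 7 genes (vertical axis) in 4 comparisons, with 95% exact Clopper-Pearson intervals from recovered reads; dotted lines mark 2-fold. No point passes 2-fold; DICER1 lies at 0.66 in siNT against PBS and at -0.67 in siSET against siNT, 2 comparisons that share the siNT library.

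The fourth comparison did the same for the siRNA against CIP2A. DICER1, TARBP2 and TNRC6C were lower in siCIP2A than in siNT beyond counting error. DICER1 stood at -0.41 [-0.52 to -0.30], TNRC6C at -0.34 [-0.61 to -0.075] and TARBP2 at -0.32 [-0.62 to -0.024]. AGO3 stood at -0.28, AGO1 at -0.089, TNRC6A at 0.050 and AGO4 at 0.21, each with an interval that held 0. Of 6103 genes, 20.2% had an interval below 0, 21.3% one above, 1.11% reached 2-fold and 6.11% reached 1.5-fold, and none of the 7 reached either. Against PBS, DICER1 turned to 0.25 [0.13 to 0.37] in siCIP2A, the 1 interval of the 7 that lay above 0, where 22.4% of all genes did and 20.4% lay below. TARBP2 stood at -0.27 [-0.57 to 0.025] and TNRC6C at -0.21 [-0.49 to 0.056] against PBS. The siSET and siCIP2A comparisons share the siNT library, so a high or low value in siNT enters both. Set directly against siCIP2A, siSET had DICER1 at -0.26 [-0.39 to -0.12], below 0 like 21.3% of 6098 genes, and TARBP2 at 0.40 [0.079 to 0.72], above 0 like 20.1%, and the other 5 intervals held 0.

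The fifth comparison set OP449 against PBS, 2 libraries without siRNA and at the same time point. DICER1 was 1.27-fold higher in OP449, at 0.34 [0.22 to 0.46], and was the 1 gene of the 7 with an interval above 0, against 19.3% of 6097 genes, while 16.9% lay below. AGO4 stood at 0.33 [-0.0078 to 0.67], TARBP2 at 0.25 [-0.028 to 0.53], TNRC6C at 0.20 [-0.060 to 0.46] and AGO3 at 0.20 [-0.21 to 0.60]. AGO1 at -0.028 and TNRC6A at -0.018 were level. With the length and GC trend removed, DICER1 stood at 0.19. Of all genes 0.59% reached 2-fold and 3.77% reached 1.5-fold, and none of the 7 reached either.

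The median log2 folds of the 7 were 0.13 in siNT against PBS, -0.11 in siSET against siNT, -0.28 in siCIP2A against siNT and 0.20 in OP449 against PBS. Over all genes tested these medians were -0.0042, 0.012, 0.015 and 0.020. The comparisons share the libraries siNT and PBS. The nearest profiles over the 5 libraries to the median profile of the 7, among 4706 other genes with a mean of at least 200 scaled counts, were those of PPIF, KMT2B, TERF2IP, LUC7L and RPUSD4. Their Euclidean distances on the centred log2 scale were 0.0449 to 0.0698. The 7 genes themselves lay 0.26 to 0.50 from that median profile. The 5 genes were chosen for their nearness, so the gap between these distances says nothing of the 7.

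The surroundings of the Argonaute cluster were read in the same way. Within 250 kb of the cluster lay 11 other genes, 9 of them past the floor of 50 scaled counts. NCDN, which encodes neurochondrin, was above in all 3 transfected libraries, at 697, 664 and 550 scaled counts in siNT, siSET and siCIP2A against 491 in PBS and 549 in OP449, where siCIP2A and OP449 nearly met. CLSPN, which encodes claspin of the replication checkpoint and is the next gene of the table before AGO4, was below, at 678, 541 and 660 against 747 and 1077. AGO4 had a difference of the same sign and AGO1, whose start lies 27.6 kb beyond the end of AGO4, one of the opposite sign, and none of these passed the test. The other 7 genes past the floor overlapped between the arms. The 2 of 9 that did not overlap stand beside 25.9% of all genes, a share near this background. TFAP2E, among the 7, stood at 18.8 scaled counts in siSET and 58.1 in siNT.

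**Figure D3:**
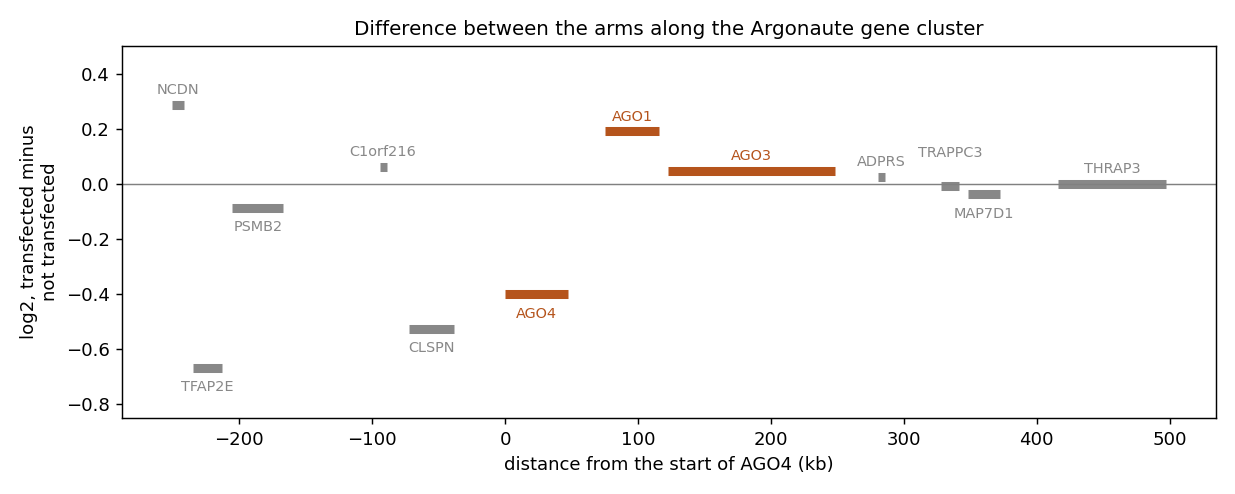
Difference in mean log2(scaled count + 1) between the 3 transfected and the 2 other libraries (vertical axis) for genes within 250 kb of the Argonaute cluster, drawn at their distance from the start of AGO4 in kb (horizontal axis); bar length is transcript span. AGO4 at -0.40 and its neighbour CLSPN at -0.52 lie below 0, AGO1 at 0.19 above.

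Other genes of the pathway were taken from 4 lists, and none of their genes passed the test between transfected and other libraries. Of 18 measured genes of small RNA processing and loading, DICER1 and TARBP2 included, 5 were higher and 13 lower in the transfected libraries, with a median difference of -0.11 where the median of all genes was -0.0088. HSP90AA1, the inducible HSP90 chaperone, stood at 13257, 12164 and 12304 scaled counts in siNT, siSET and siCIP2A against 16903 in PBS and 16592 in OP449, a difference of -0.41 ± 0.11 (SE) with a limma adjusted p of 0.53. HSPA8, the constitutive HSP70, stood at 21376, 23048 and 18690 against 26504 and 23484. For both, all 3 transfected libraries lay below the 2 others. This held for 7 of the 18 genes, where 13.8% of all 6094 genes lay below. ADAR and DDX5, 2 of the 18, lay above, where 12.1% of all did. The genes below were HSP90AA1, HSPA8, their co-chaperones PTGES3, FKBP4 and STIP1, and TSN and HNRNPA1. The co-chaperones AHSA1 and DNAJA2 were also lower, at -0.077 and -0.18, but overlapped. The median and counts of this list thus rest in large part on general chaperones.

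TSN, which encodes translin, a subunit of the nuclease C3PO that helps to remove the passenger strand, showed the control siRNA library apart from the rest. It stood at 1023 scaled counts in siNT, against 1497 and 1384 for siSET and siCIP2A and 1517 and 1582 for PBS and OP449. The direction was opposite to that of DICER1, which was highest in siNT. TSNAX, of the same list, was not lowest in siNT, with 776, 886 and 659 scaled counts for siNT, siSET and siCIP2A against 663 in PBS and 778 in OP449. HNRNPA1, which encodes an RNA-binding protein that acts on microRNA precursors, stood at 1103, 1079 and 1029 in the transfected libraries against 1289 and 1221.

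Of 9 measured Argonaute and GW182 effectors and partners, 5 of them among the 7, 4 were higher and 5 lower, with a median of -0.072. MOV10, a helicase that binds Argonaute, was highest in siSET at 888 scaled counts and lowest in OP449 at 595. GEMIN4 and DDX20, partners in the SMN complex found with Argonaute, were both lowest in siNT, at 1201 and 436. Against PBS, siNT had GEMIN4 at -0.25 [-0.37 to -0.13], beyond counting error, and DDX20 at -0.17 [-0.37 to 0.033], within it. DDX20 in siSET was also within counting error of siNT, at 0.034 [-0.20 to 0.27], but in siCIP2A it was higher, at 0.27 [0.076 to 0.48]. FXR2, a relative of the fragile X protein, was below in all 3 transfected libraries, and at 1218 in siNT it lay just under the 1220 of PBS.

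Of 17 measured genes of deadenylation and decapping, the steps that follow GW182, 9 were higher and 8 lower. Their median was 0.011 and their mean -0.017, so the sign depends on the summary. PAN2, a subunit of a poly(A) nuclease that GW182 recruits, was lowest in siNT at 171 scaled counts and stood at 294 and 315 with siSET and siCIP2A, against 214 and 197 for PBS and OP449. Its log2 fold was 0.78 [0.46 to 1.12] in siSET and 0.88 [0.59 to 1.18] in siCIP2A against siNT. In these comparisons 7.15% and 6.11% of all genes reached 1.5-fold. PAN3, of the same list, stood at -0.12 [-0.34 to 0.094] and -0.021 [-0.21 to 0.17], within counting error. CNOT1, the scaffold of the CCR4-NOT deadenylase, lay between 3018 and 3206 in all libraries. BTG2, which activates deadenylation, was low, at 40.3, 37.6 and 61.8 in the transfected libraries against 69.1 and 69.6.

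Of 13 measured genes of double-stranded RNA sensing and editing, 7 were higher and 6 lower in the transfected libraries, with a median of 0.022. SIDT2, a lysosomal protein linked to RNA transport, was above in all 3, at 431, 551 and 455 scaled counts against 367 in PBS and 332 in OP449, with a difference of 0.45 ± 0.15 (SE) and a limma adjusted p of 0.61. The sensor genes IFIH1, which encodes MDA5, and EIF2AK2, which encodes PKR, overlapped between the arms, with IFIH1 at 167, 205 and 152 against 170 and 133. EIF2AK2 stood at 462, 465 and 373 in the transfected libraries against 363 in PBS and 497 in OP449. OAS3, of the oligoadenylate synthetase family, was above in all 3, at 497, 592 and 510 against 465 in PBS and 457 in OP449. Its difference was 0.20, with a limma adjusted p of 0.70. The rest of this family did not share the order. OASL, at 292, 245 and 148 against 268 and 198, overlapped. OAS2, at 108, 147 and 137 against 128 and 97.9, overlapped too, and OAS1 was below the floor. In this list 3 of the 13 genes lay above and 3 below without overlap, beside 12.1% and 13.8% of all genes. DHX58 was lowest in OP449, at 29.6 scaled counts against 57.8 in PBS, and siCIP2A stood at 36.4 against 69.9 in siNT.

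**Figure D4:**
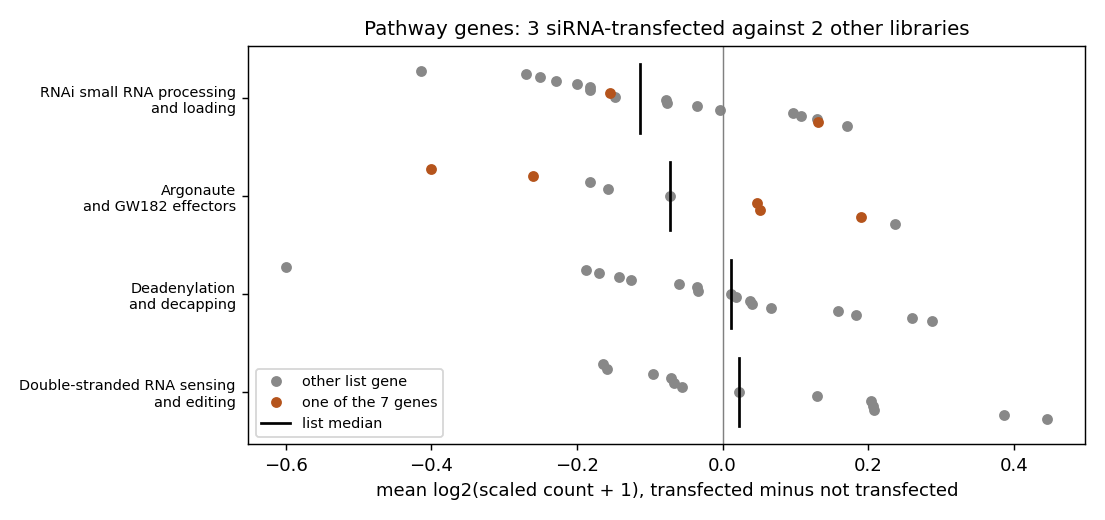
Difference in mean log2(scaled count + 1), transfected minus not transfected (horizontal axis), for the measured genes of 4 pathway lists (rows); orange points are the 7 genes, grey points the other list genes, and black bars list medians. The list medians lie between -0.11 and 0.022, and no gene passed the limma test.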

How the data were processed

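Total RNA of 5 libraries was reverse transcribed with oligo-dT and sequenced on an Illumina GAII, per the labels' protocols. The deposited values are a signal per transcript that the authors had scaled per library, called scaled counts. The submitters' processing notes name hg19, CASAVA and Bowtie 1.0.0. The counting program, the use of strand and the way of scaling were not given in the sources used here. In each library 100% of values were whole multiples of 1 read within a tolerance, so reads were recovered. The tolerance was 0.001 reads and was widened in proportion to the count for high values. A read was worth 1.10 to 1.71 scaled counts.

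The table had 16383 rows. Accessions were matched to current symbols for 15739 rows, and the row with the highest mean represented each gene. No group had a replicate. The transfected and other libraries were compared with limma 3.58.1 (trend, pseudocount 1, mean of at least 50 scaled counts), with edgeR 4.0.16 and DESeq2 1.42.0 on recovered reads as alternatives. Adjustment was by Benjamini-Hochberg over all these genes, but DESeq2 left some, AGO3 and AGO4 among them, without an adjusted p. limma was tested on simulated data. Pairs of libraries were given log2 folds of log2(scaled count + 1), which understate folds of low genes, called at 2-fold with a mean of at least 50 over the pair, and exact Clopper-Pearson 95% intervals of the ratio. Reads carry no molecular identifiers, so intervals and floors cover counting error only. Lengths and GC content came from GENCODE transcripts matched by accession, shortened where they reach past the span in the table, and were available for 92.8% of genes and 6 of the 7.

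The genes and lists were chosen with earlier results of these data known. Named were the 7 genes, up to 4 further genes per pathway list with the largest difference between the arms, all genes near the Argonaute cluster, the 5 nearest profiles and cell markers. ADAR, AHSA1, CNOT1, DDX5, DNAJA2, EIF2AK2, FKBP4, OAS1, OAS3, OASL, PAN3, PTGES3, STIP1 and TSNAX were named after their values were seen. Alternatives were other floors (20, 200, none), a pseudocount of 10, a fold of 1.5, 3 rescalings, sums of rows, PBS as control, removal of the length and GC trend, and each library left out.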

Additional observations from a re-analysis of the deposited data

How the results depend on the processing

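No gene of the 7 passed the test between arms under any of the 16 alternatives run, leave-one-out fits included, where an arm left with 1 library was assumed to vary like the other. AGO3 and AGO4 were not in the fit at a floor of 200, AGO3 not in that with the length trend removed, and neither got an adjusted p from DESeq2. The number of the 7 that separated the arms was 2 to 5 over all alternatives and 3 to 5 over those that left out a library, with 5 without PBS. Of all genes, 39.4% to 56.4% separated them with a library left out, and 23.0% to 26.6% in the other alternatives. At the floor of 200, where 2 separated, AGO3 and AGO4 were not counted. At a fold of 1.5 in place of 2, siNT against PBS called 1 gene and siSET against siNT 2, and no other alternative called any of the 7 in the 4 pairs of libraries. The difference between arms of DICER1 reversed to -0.049 without siNT and -0.040 without PBS, and that of AGO3 to -0.11 and -0.051. With each library left out in turn, these ranged from -0.049 to 0.30 and from -0.11 to 0.23. With PBS as control, DICER1 in siCIP2A reversed to 0.25. The cause of these changes was not tested. Of the other values of single genes, 276 stayed within their counting interval or on their side of the test and 6 moved beyond it, 5 of them with PBS as control and DICER1 in OP449 with the length trend removed. No paired analysis was possible because each group holds 1 library. Depth limited AGO3 and AGO4 most, with 59 and 75 reads in siSET.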
